A study of Rattus norvegicus with 743 samples.

Results

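The 10 genes described here form the core of the circadian clock and its best known output in liver: Arntl, Npas2, Clock, Per1, Per2, Per3, Cry1, Nr1d1, Nr1d2 and Dbp. They were taken by symbol from a table of 32892 gene rows, and each symbol stood on 1 row. Liver RNA was sequenced from rats that had been dosed daily with a pharmaceutical or a reference toxicant, or with the vehicle alone, and killed 24 hours after their final dose, per the labels. The series held 743 libraries of 680 animals of the Han Wistar and Sprague Dawley strains, in 99 treated and 83 vehicle groups. Each treated group was set against the vehicle group labelled with the same study, batch number and vehicle, which gave 97 comparisons of 2 to 6 rats a group: 53 in Han Wistar rats (48 after 4 days of dosing, 2 after 5 and 3 after 7) and 44 in Sprague Dawley rats (41 after 4 days and 1 each after 3, 7 and 17). Doses are in the labels' unit mkd, read here as mg per kg and day. The rats were males except in a few studies that held females or both sexes. No rat is labelled as genetically altered, and the labels used here give no age, no hour of the day for dosing or for the kill, and no lighting schedule.

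In the mammalian clock, ARNTL (also called BMAL1) pairs with CLOCK or with its relative NPAS2 and activates genes that carry the E-box sequence. Among these genes are the Period genes and the Cryptochrome genes, whose proteins repress the activating pair, and Nr1d1 and Nr1d2, which encode the nuclear receptors REV-ERB alpha and beta. The REV-ERBs repress Arntl, Npas2, Clock and Cry1. Dbp encodes a transcription factor that binds D-box sequences and carries the rhythm to liver enzymes and transporters. Per1 also responds directly to glucocorticoids. In liver the transcripts of the activators and those of Nr1d1 and Dbp peak at nearly opposite times of day, so that a level in a liver taken at a single time reflects the phase of its clock as well as its amount of clock RNA.

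Of the members' promoters 4 are printed, because each carries a motif through which these genes are known to regulate each other. RefSeq's GRCr8 table held 9 of the 10 members, with 11 start sites, of which the 250 bases before the start were searched on both strands for 4 motifs. These were the E-box CACGTG, its variant CACGTT, which shares all but the last base with it, the D-box TTANGTAA, and AGGTCA, the core that REV-ERB receptors bind. Of 33469 rat promoters of the same length, 5.59% held CACGTG, 4.07% CACGTT, 2.04% TTANGTAA and 14.1% AGGTCA. Of the 11 starts, 1 held CACGTG, 2 held CACGTT, 1 held TTANGTAA and 2 held AGGTCA. No match was found before the starts of Npas2, Clock, Per1, Per3 or Dbp. Whether the members hold more matches than other promoters was not tested. Each sequence below runs 5′ to 3′ on the gene's own strand and ends at the base before the start, with the motif in capitals. The Arntl sequence (chr1:176766078-176766327, plus strand) has AGGTCA 15 bases before the start. The Nr1d1 sequence (chr10:84229455-84229704, minus strand), before the second of its starts, has CACGTG at 191. The Per2 sequence (chr9:99496994-99497243, minus strand) has TTANGTAA at 192, in capitals, and also CACGTT at 62, which is left in lower case. The Nr1d2 sequence (chr15:9954784-9955033, plus strand) has AGGTCA at 187.
Arntl: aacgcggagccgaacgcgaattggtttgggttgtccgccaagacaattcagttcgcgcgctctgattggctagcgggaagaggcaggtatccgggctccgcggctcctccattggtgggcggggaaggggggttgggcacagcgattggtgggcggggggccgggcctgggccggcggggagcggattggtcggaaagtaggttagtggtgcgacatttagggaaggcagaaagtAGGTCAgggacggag
Nr1d1: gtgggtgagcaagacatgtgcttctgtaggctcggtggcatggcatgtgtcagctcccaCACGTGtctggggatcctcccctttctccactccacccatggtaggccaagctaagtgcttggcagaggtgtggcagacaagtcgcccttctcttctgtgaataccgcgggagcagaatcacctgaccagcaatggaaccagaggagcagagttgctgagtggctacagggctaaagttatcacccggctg
Per2: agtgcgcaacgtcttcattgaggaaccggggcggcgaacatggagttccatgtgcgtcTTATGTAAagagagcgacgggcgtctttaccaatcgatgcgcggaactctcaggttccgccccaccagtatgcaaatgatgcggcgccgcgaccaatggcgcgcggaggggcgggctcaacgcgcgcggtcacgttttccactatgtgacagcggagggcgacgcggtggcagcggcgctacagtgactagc
Nr1d2: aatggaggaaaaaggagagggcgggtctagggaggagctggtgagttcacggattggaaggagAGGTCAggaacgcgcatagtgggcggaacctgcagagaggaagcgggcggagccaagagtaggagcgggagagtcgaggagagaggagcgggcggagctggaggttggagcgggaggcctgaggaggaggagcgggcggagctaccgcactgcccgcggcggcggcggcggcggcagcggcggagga
Such a match is a description of the letters in this window and not of binding in these livers.

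The median library held 18.212 M counts (lowest 0.313 M, highest 45.545 M), and every library outside the PCN study held at least 11.225 M. In that shallow study Npas2 and Nr1d1 were too low to be tested, so that 968 member tests were run over the 97 comparisons. Counting scatter between libraries showed that vehicle rats can stand in the data under more than 1 study code: 22 rats in 6 pairs of study codes had nearly the same profile under the same animal number, and each was counted once. This left 73 vehicle groups of 288 rats, 39 groups of 155 rats in Han Wistar and 34 groups of 133 rats in Sprague Dawley. The vehicle rats of the ticlopidine and the flutamide comparisons were among those found under 2 codes, so these comparisons share control animals. The labels give these 4 rats deionized water beside ticlopidine and 0.5% methylcellulose in water beside flutamide. Both cannot hold, so treated and vehicle rats of 1 of the 2 comparisons may not have had the same vehicle. This was the only pair of codes with different vehicle labels. Carbamazepine stands under the code of flutamide and nefazodone under that of ticlopidine.

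In 2 comparisons a library went against its label. The library labelled vehicle replicate 3 beside phenobarbital in Han Wistar rats was nearly identical to that of phenobarbital replicate 1 (an index of scatter of 4.6, where counting noise alone gives about 1) and far from its fellow vehicle libraries (83.6 to 99.0). As labelled, edgeR's quasi-likelihood test called 0 genes in this comparison (2468 at an unadjusted p under 0.05, and 647 called by DESeq2), and without the library it called 2092. Per2 then passed (log2 fold change -1, adjusted p = 0.0204), which it had not as labelled (-0.89, adjusted p = 0.13; DESeq2 called 1 member). The library labelled troglitazone replicate 1 was nearly identical to vehicle replicate 4 beside it (3.5). As labelled, the same test called 0 genes there (1333 at an unadjusted p under 0.05, and 65 by DESeq2), and without it 84, none of them a clock gene. Without the library Arntl stood at -0.38 on the log2 scale (adjusted p = 0.112).

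The livers of vehicle rats differed between the strains in most of the clock genes. The activators were higher in Han Wistar livers: Arntl at 46.8 ± 3.27 CPM (counts scaled to a common library total, SD over 34 groups of males dosed for 4 days) against 15.4 ± 8.88 in 32 Sprague Dawley groups, Npas2 at 24.7 ± 4.99 against 9.12 ± 5.68, and Clock at 81.4 ± 24.6 against 48.2 ± 10.2. The repressor gene Cry1 was higher as well, at 37.9 ± 10.5 against 6.75 ± 2.56 CPM. Of the other genes that the activators drive, Nr1d1, Nr1d2, Per3 and Dbp were lower in Han Wistar livers. Nr1d1 stood at 4.89 ± 5.68 against 72.3 ± 34.4 CPM and Nr1d2 at 17.9 ± 8.18 against 71.9 ± 20.7. Per3, the Period gene with the widest gap between the strains, stood at 4.03 ± 0.947 against 29.8 ± 17.5, and Dbp at 7.99 ± 2.41 against 76.5 ± 48.5. Per1 and Per2 lay closer together, Per1 at 39.8 ± 12.9 against 34.8 ± 9.98 CPM and Per2 at 36.5 ± 12.9 against 29 ± 16.5.

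edgeR's quasi-likelihood test on counts summed per group, with Benjamini-Hochberg adjustment over 14560 genes, called 8 of the 10 members between the strains, where 55.1% of all genes were called. The log2 differences, Han Wistar minus Sprague Dawley, were 1.60 for Arntl (SE 0.17, adjusted p = 1.41e-12), 1.44 for Npas2 (SE 0.17) and 0.75 for Clock (SE 0.09). Cry1 differed by 2.49 (SE 0.14, adjusted p = 1.44e-24). On the other side, Nr1d1 differed by -3.91 (SE 0.23, adjusted p = 5e-23), Dbp by -3.25 (SE 0.20), Per3 by -2.88 (SE 0.18) and Nr1d2 by -2.01 (SE 0.12). These are large beside the median absolute log2 difference of 0.17 over all genes tested. Per1 (0.20, SE 0.12, adjusted p = 0.166) and Per2 (0.33, SE 0.17, adjusted p = 0.0999) did not pass. Per2 passed with the batch number as a covariate (0.45, adjusted p = 0.0203) and with groups counted by study code (0.40, adjusted p = 0.0318), and Per1 passed among groups given methylcellulose (0.37, adjusted p = 0.01). Each study used a single strain, so strain and study cannot be told apart. Nr1d1 overlaps Thra on the opposite strand, and whether the counting used strand is not given in the sources used here, so its level may hold reads of Thra. In whole liver, fewer cells that express a gene and less of its RNA per cell cannot be told apart.

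**Figure D1:**
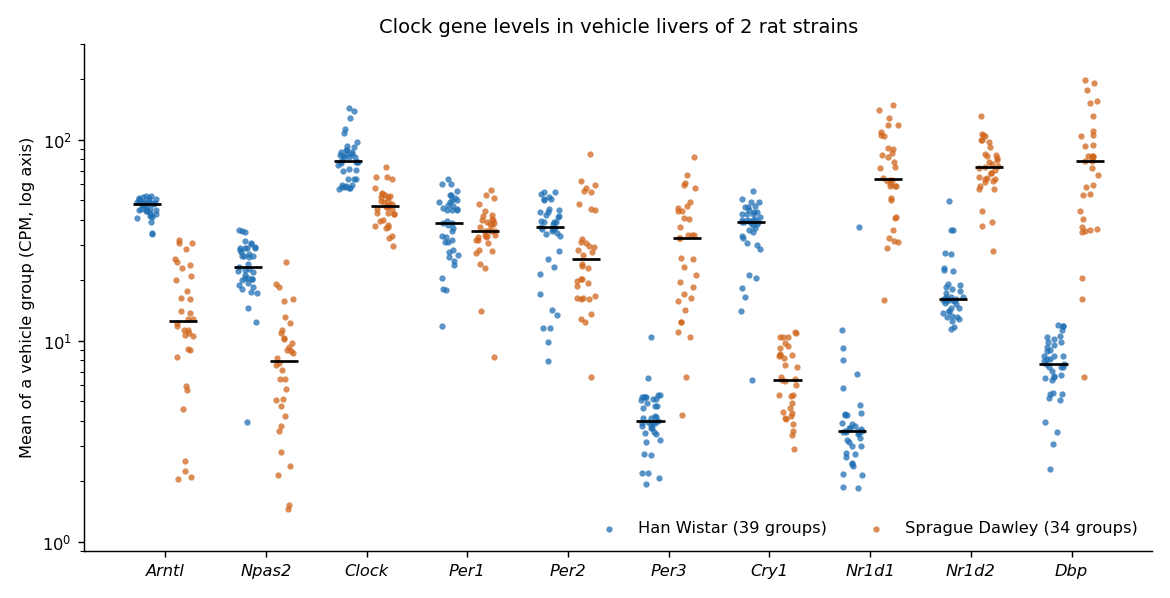
Mean CPM of each clock gene in each vehicle group (1 point a group, log axis), Han Wistar in blue and Sprague Dawley in orange, with black bars at the medians. All 39 Han Wistar groups lie above all 34 Sprague Dawley groups for Arntl, while Per1 and Per2 overlap widely.

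Single groups of the strains were kept apart to different degrees, and completely for Arntl. For this gene all 39 Han Wistar group means (34.1 to 52.6 CPM) lay above all 34 Sprague Dawley means (2.06 to 31.9). For Cry1, 38 of the 39 Han Wistar groups lay above every Sprague Dawley group. For Dbp 33 of 34 Sprague Dawley groups and for Per3 31 of 34 lay above every Han Wistar group, and for Nr1d1 38 of 39 Han Wistar groups lay below every Sprague Dawley group. The exception for both Cry1 and Nr1d1 was the vehicle group of the TCDD comparison, whose rats received corn oil with acetone. Its Nr1d1 mean of 36.8 CPM compares with 1.86 to 11.3 in the other 38 Han Wistar groups, and its Cry1 mean of 6.38 CPM with 14.1 to 55.5. Nr1d2 (49.8 against 11.5 to 35.5), Per1 (11.9 against 17.8 to 63.6) and Per2 (7.90 against 9.84 to 55.2) lay outside the range of the other groups too. Arntl, Npas2, Clock, Per3 and Dbp in these rats lay within it.

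Rats of the same Han Wistar group mostly had similar levels of Arntl, and rats of the same Sprague Dawley group mostly did not. The highest rat of a group over the lowest gave a median fold of 1.19 in Han Wistar and 9.28 in Sprague Dawley groups. In the captopril vehicle group the 4 Han Wistar rats read 44.5, 44.9, 45.5 and 46.4 CPM. In the PCN vehicle group, of the shallow study, the 4 Han Wistar rats read 25.2, 31.5, 34.5 and 45.3 CPM. In the telcagepant vehicle group the 4 Sprague Dawley rats read 0.912, 3.22, 4.2 and 37. The same 4 rats, in that order, held 153, 92.8, 81.6 and 3.86 CPM of Dbp and 88.5, 46.6, 58 and 3.33 CPM of Per3. The rat with the most Arntl thus had the least Dbp and Per3, and the rat with the least Arntl the most. Npas2, the partner that stands in for CLOCK, followed Arntl in these rats, with 0.973, 3.05, 3.22 and 18.5 CPM. In the omeprazole vehicle group, by contrast, all 4 Sprague Dawley rats were alike, with Arntl at 31 to 33.3 CPM and Dbp at 5.1 to 8.84. These groups were picked as the narrowest and widest after the values were seen.

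Over all vehicle rats, Arntl ran from 25.2 to 57.9 CPM in 155 Han Wistar rats and from 0.912 to 45.7 CPM in 133 Sprague Dawley rats. Of the Sprague Dawley rats 73 held less than 10 CPM of Arntl, and all 73 held more than 20 CPM of Dbp. Another 41 held at least 20 CPM of Arntl, and all 41 held less than 20 CPM of Dbp, as did all 155 Han Wistar rats. In 22 of the 34 Sprague Dawley groups, rats of both kinds stood in the same group. In 10 groups no rat reached 20 CPM of Arntl, and in 2 groups none was under 10. These limits of 10 and 20 CPM were chosen after the values were seen.

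**Figure D2:**
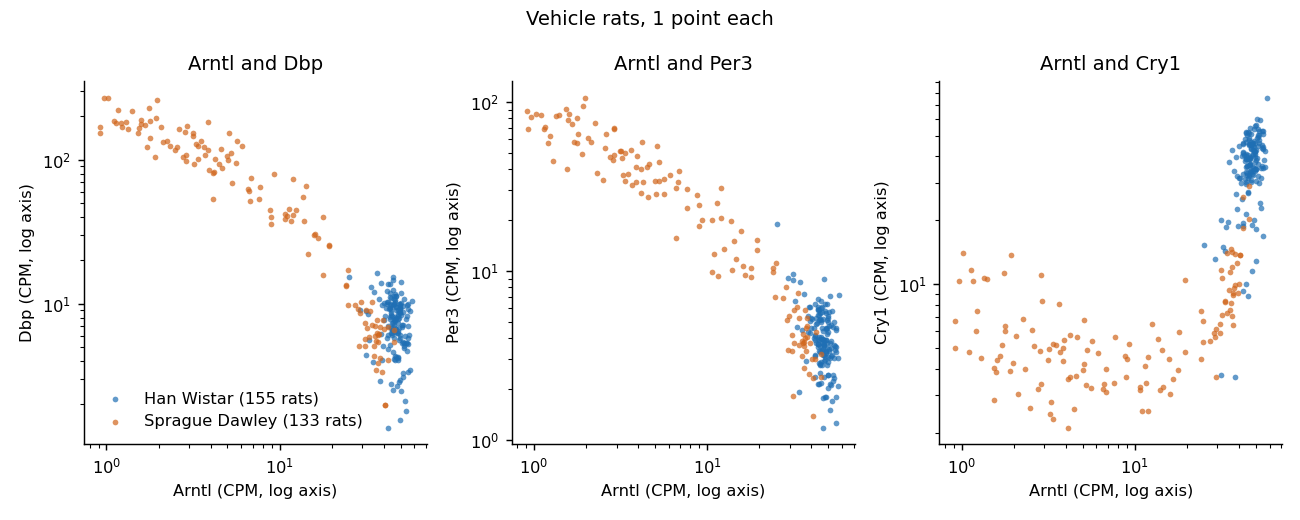
Dbp, Per3 and Cry1 against Arntl in single vehicle rats (CPM, log axes), with 155 Han Wistar rats in blue and 133 Sprague Dawley rats in orange. The Sprague Dawley rats form a continuous band from low Arntl with high Dbp and Per3 to high Arntl with low Dbp and Per3, at whose end the Han Wistar rats cluster, while Cry1 is highest in the rats with most Arntl.

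The scatter of log2 CPM between rats of a group put numbers on this. Its SD was 0.13 in Han Wistar and 1.56 in Sprague Dawley rats for Arntl, 0.43 and 1.47 for Npas2, 0.44 and 1.48 for Per3, and 0.44 and 1.82 for Dbp. For Clock, Cry1 and Nr1d2 the SDs were 0.17 and 0.38, 0.31 and 0.69, and 0.31 and 0.65. Per1 varied about as much in both strains (0.80 and 0.94), as did Nr1d1 (0.92 and 1.13), and Per2 stood between (0.55 and 0.93). Between libraries prepared again from the same animal the SD ran from 0.15 (Arntl and Nr1d2) to 0.61 (Nr1d1) over 59 animals. For Arntl and Clock (0.17) the scatter between Han Wistar rats of a group was no larger than that between such libraries. The share of the variance that lay between vehicle groups rather than between rats of a group was 12.1% (Per1) to 31.5% (Per2) for the members in Sprague Dawley, where the median of all genes was 32.1%. In Han Wistar rats it was 24.1% (Per1) to 78.9% (Clock), against a median of 42.7% over all genes.

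The members moved together across vehicle groups within each strain, but not along the same lines. Of the 45 pairs of members, 28 passed in Han Wistar rats (13 with a positive correlation) and 29 in Sprague Dawley rats (13 positive), by a 2-sided permutation test of Pearson's r on group means of log2 CPM with adjustment over the 45 pairs. An absolute r over 0.8 was found for 2 Han Wistar and 16 Sprague Dawley pairs. In the 34 Sprague Dawley groups Arntl fell as Dbp rose with r = -0.97 (rho = -0.94, both permutation p = 1e-05, the smallest these can give, adjusted 2.37e-05 and 2.25e-05). The value was -0.96 without the 2 groups farthest from the median, -0.97 within batch 3 alone, and -0.93 over rats within their groups. Arntl and Per3 gave r = -0.97 (rho = -0.96), Per3 and Dbp 0.96 (rho = 0.88), and Arntl and Npas2 0.91 (rho = 0.92), each with the same permutation p. Batch 3 alone gave -0.96, 0.94 and 0.89 for these pairs, and leaving out the farthest 2 groups gave -0.96, 0.95 and 0.89.

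Among the 39 Han Wistar groups, whose Arntl varied little, Arntl and Dbp gave r = -0.14 (rho = -0.30, permutation p = 0.4 and 0.067, adjusted 0.468 and 0.108). There the closest pair was Cry1 and Nr1d2 with r = -0.84 (rho = -0.46, permutation p = 1e-05 and 0.00327, adjusted 5e-05 and 0.0134), which was -0.70 without the 2 farthest groups and -0.71 in batch 3. Per2 and Cry1 gave 0.81 (rho = 0.60), Npas2 and Per3 -0.75 (rho = -0.69), and Arntl and Npas2 0.74 (rho = 0.69), each at the smallest permutation p for r. In batch 3 these stood at 0.66, -0.90 and 0.78, and without the 2 farthest groups at 0.72, -0.67 and 0.53. Per1 and Per2, the Period genes that respond to outside signals, gave 0.73 in Han Wistar groups (permutation p = 1e-05) and 0.24 in Sprague Dawley groups (permutation p = 0.171). For 10 pairs both strains passed with the same sign, and for 5 with opposite signs. Per2 and Nr1d2 went from -0.75 in Han Wistar to 0.82 in Sprague Dawley, Per2 and Nr1d1 from -0.63 to 0.70, Nr1d2 and Dbp from -0.59 to 0.91, Nr1d1 and Dbp from -0.39 to 0.86, and Clock and Nr1d2 from 0.66 to -0.45. In the 21 Han Wistar groups of batch 3, Nr1d2 with Dbp stood at -0.12, Nr1d1 with Dbp at -0.04 and Clock with Nr1d2 at 0.22. By rank, Nr1d1 with Dbp did not pass in Han Wistar groups (rho = -0.21, permutation p = 0.187, adjusted 0.264). The difference between the strains was not itself tested.

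Among 8373 other genes, those whose vehicle group means were most like Arntl were Dapk1, Clpx, Lgalsl, Leo1 and Lnx2. Their r with Arntl was 0.70, 0.54, 0.57, 0.44 and 0.22 within Han Wistar and 0.90, 0.93, 0.87, 0.81 and 0.88 within Sprague Dawley groups. Most like Dbp were Tef, a close relative of Dbp that binds the same D-box (0.56 and 0.96), Klf16 (0.45 and 0.85), Hsd17b2 (-0.62 and 0.95), Ttc7b (0.59 and 0.75) and Ifrd2 (0.19 and 0.75). Hsd17b2, a steroid dehydrogenase, thus followed Dbp in Sprague Dawley groups and went against it in Han Wistar groups. Most like Per1 were Usp2 (0.84 and 0.79), Klf15 (0.81 and 0.81), Proser2 (0.79 and 0.72), Csnk1d (0.78 and 0.74) and Dirc2 (0.81 and 0.56). Usp2 encodes a deubiquitinase and Csnk1d a kinase that act on clock proteins, and Klf15 is a target of the glucocorticoid receptor. The ranking used all 73 groups, which share libraries' batches and fall apart by strain, so the values within each strain are a description.

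At least 1 clock gene was called between treated and vehicle rats in 40 of the 97 comparisons, 29 in Han Wistar and 11 in Sprague Dawley rats. In 33 of them at least 2 members were called. In 16 comparisons no gene at all was called. No matching count was made for other sets of 10 genes, so these counts of comparisons do not set the clock genes apart. There were 73 vehicle groups for the 97 comparisons, so some comparisons share vehicle rats and are not independent. A gene was called when its adjusted p in edgeR's quasi-likelihood test was under 0.05. Of the 968 member tests 64 were called higher and 76 lower. The background over all genes and comparisons was 4.97% higher and 4.55% lower. In Han Wistar rats 54 of 528 member tests were called higher and 55 lower, where 5.96% and 5.4% of all gene tests were. In Sprague Dawley rats 10 of 440 were called higher and 21 lower, where 3.79% and 3.53% of all gene tests were. Higher calls of members in Sprague Dawley rats were thus below the background share, and their lower calls were above it. The median standard error of a member's log2 fold change was 0.24 in Han Wistar and 0.56 in Sprague Dawley comparisons, so that the same change was harder to call in the latter. Different drugs were given to the strains, apart from phenobarbital, so a difference in response between strains was not tested.

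In Han Wistar rats the calls of a member mostly pointed 1 way. The activator Arntl fell in 12 comparisons and rose in none, and Npas2 fell in 11 and rose in none. Cry1 fell in 11 and rose in 1. The genes of the opposite side went the other way: Per3 rose in 19 comparisons, Nr1d2 in 17 and Nr1d1 in 11, and none of them fell in any. Clock was called higher in 3 and lower in 5, and Dbp higher in 2 and lower in 8. Per1 fell in 3 and Per2 fell in 5 and rose in 1. At least 1 of Nr1d1, Nr1d2 and Per3 rose in 22 of the 53 Han Wistar comparisons, Per3 and Nr1d2 rose together in 14, and Npas2 fell while Nr1d2 rose in 8. Dbp, although the activators drive it as they do Per3, was called opposite to Arntl in 2 comparisons and in the same direction in 1. These counts are not of independent comparisons, and no matching counts were made for other sets of genes. Flutamide, carbamazepine, ticlopidine and nefazodone, whose study codes hold the same 4 vehicle rats, gave 5, 5, 10 and 3 calls of members. Of all genes tested, 48% were called under flutamide and 49.2% under ticlopidine. Under carbamazepine 2664 of 12530 genes were called higher and 2431 lower. Under nefazodone 1397 of 12570 were called higher and 1148 lower.

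In Sprague Dawley rats the calls of Arntl, Cry1, Per3, Nr1d1 and Nr1d2 mostly pointed the other way, and those of Dbp, Per1 and Per2 did not. Arntl rose in 2 comparisons and fell in none, Npas2 rose in 2 and fell in 1, Clock rose in 3 and Cry1 rose in 3. Per3 fell in 4, Nr1d1 in 3 and Nr1d2 in 5, and none of them rose in any. At least 1 of Nr1d1, Nr1d2 and Per3 fell in 7 of the 44 comparisons, again without a matching count for other sets of genes. Dbp fell in 5, Per1 in 1 and Per2 in 2, with no rise, so that their calls were mostly lower in both strains. The vehicle rats these treated rats were compared with started from opposite levels in the strains, with Arntl high in Han Wistar and spread widely in Sprague Dawley vehicle rats. The part of that start in the directions was not tested.

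**Figure D3:**
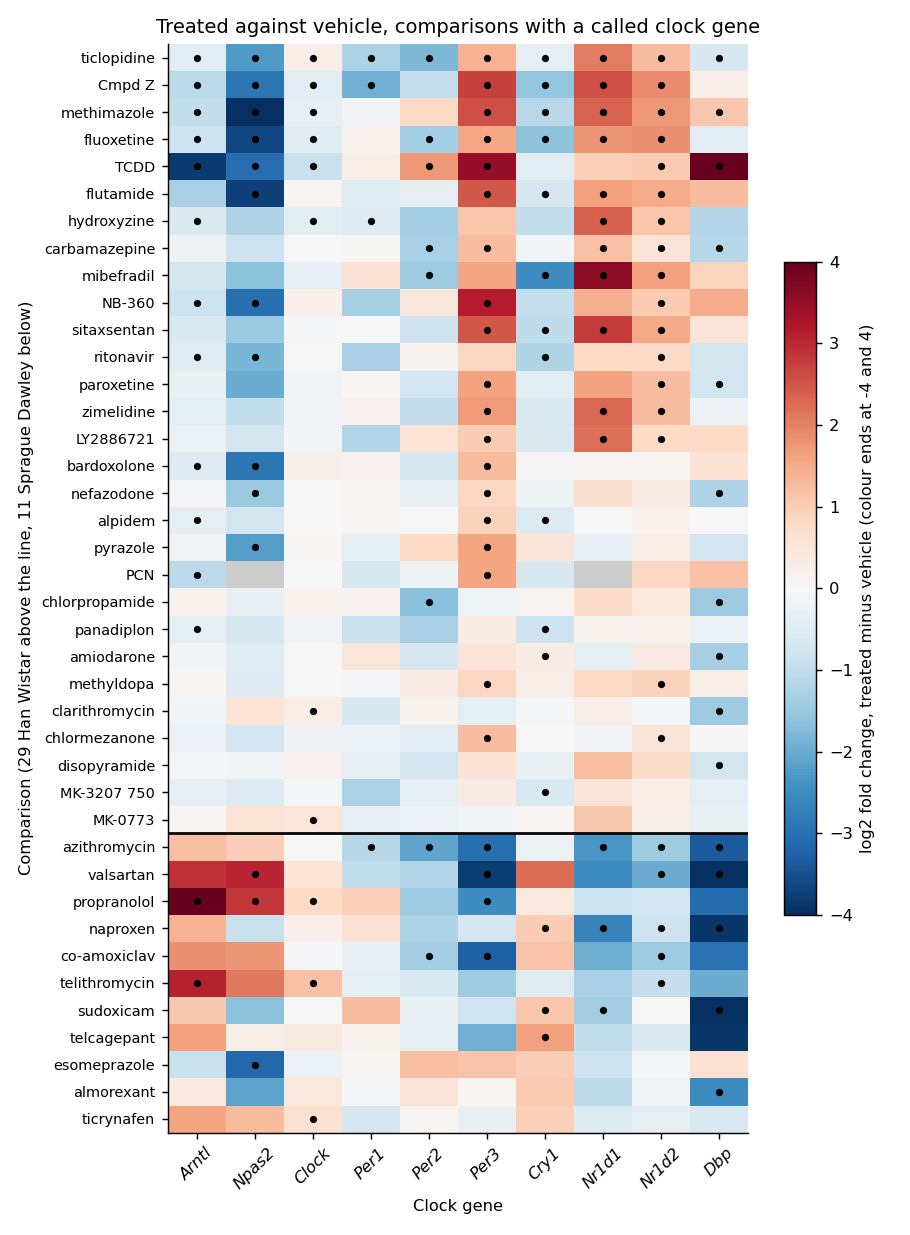
Log2 fold change of each clock gene, treated minus vehicle, in the 40 comparisons with at least 1 member called, with 29 Han Wistar comparisons above the line and 11 Sprague Dawley ones below; red is higher and blue lower in treated rats, a dot marks a call and grey a gene not tested. Npas2 is mostly blue and Per3, Nr1d1 and Nr1d2 mostly red above the line, and the reverse holds for most rows below it.

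The 8 comparisons with most members called are described rat by rat. They were chosen by those calls, so their counts are a description: ticlopidine 10 members, Cmpd Z 8, methimazole 8, fluoxetine 8, TCDD 7, azithromycin 6, flutamide 5 and hydroxyzine 5. All lasted 4 days, and all but azithromycin were in Han Wistar rats. Most of these treatments changed a large part of the liver transcriptome, so the share of all genes called is given with each. Summed cholangiocyte markers were higher, with no overlap, under Cmpd Z, methimazole, fluoxetine, azithromycin and hydroxyzine, with 1 marker called higher in each and 1 called lower under fluoxetine, and their part was not tested. CPM values of single comparisons, here and below, are scaled within the comparison and differ from those of the vehicle groups above. In the TCDD vehicle rats the mean was 28.8 CPM of Arntl in this scaling and 39.1 in that above. For Nr1d1 these means were 27.3 and 36.8 CPM.

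Ticlopidine, an inhibitor of platelet aggregation given at 600 mg/kg, moved every member, in a comparison where 49.2% of genes were called. Npas2 stood at 3.69, 2.91, 6.5 and 3.67 CPM in the 4 treated rats and at 11.3, 19.6, 17.3 and 34.1 in the 4 vehicle rats. Per2 stood at 20.4, 9.91, 20.9 and 11.5 against 61.7, 54.6, 54.5 and 48.8. Nr1d1 stood at 7.25, 12.3, 5.15 and 14.8 against 2.31, 1.75, 1.9 and 3.65. For these 3 genes no treated rat overlapped a vehicle rat. The log2 fold changes were -2.28 for Npas2 (SE 0.38, adjusted p = 0.00157), -1.81 for Per2 (SE 0.24, adjusted p = 0.000386) and 2.04 for Nr1d1 (SE 0.37, adjusted p = 0.00192). Per3 (1.4, SE 0.21) and Nr1d2 (1.24, SE 0.21) rose, and Arntl (-0.44, SE 0.09) and Per1 (-1.28, SE 0.32) fell. The groups overlapped for Per1, where treated replicate 3 (34.8 CPM) lay above vehicle replicate 2 (33.6 CPM). Clock rose, from 92.6 ± 6.74 to 112 ± 7.28 CPM (SD, n = 4; log2 fold change 0.27, SE 0.08, adjusted p = 0.0141). Cry1 (-0.37, adjusted p = 0.0407) and Dbp (-0.64, adjusted p = 0.0255) were called lower, but their groups overlapped, and Cry1 was lost on leaving out any of 6 single rats and Dbp any of 5. Summed CPM of 6 hepatocyte markers, of which 5 were called lower, was 61400 to 82600 in treated and 175000 to 199000 in vehicle rats, and 6 of 6 macrophage markers were called lower (155 to 232 against 322 to 401). So were 4 of 5 stellate markers (192 to 252 against 467 to 528), 3 of 4 endothelial (174 to 210 against 251 to 317) and 3 of 3 erythroid markers tested (52.1 to 97.2 against 182 to 272). Their part in the result was not tested.

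Cmpd Z, a compound known here by its code and given at 400 mg/kg, changed 8 members, where 39.2% of genes were called. Cry1 stood at 17.4, 14.2, 16.3 and 16.3 CPM in treated against 52.4, 44.4, 46 and 46.3 in vehicle rats (-1.56, SE 0.11, adjusted p = 7.06e-06). Nr1d2, whose product represses Cry1, stood at 62.2, 33.9, 73.3 and 73.3 against 19.4, 14.9, 12.9 and 17.7, a change of 1.90 (SE 0.24, adjusted p = 0.00029). This was the largest called rise of Nr1d2 in any comparison. Per3 rose by 2.73 (SE 0.29) and Nr1d1 by 2.57 (SE 0.55) on the log2 scale. Arntl fell from 43.9 ± 2.96 to 20.8 ± 4.25 CPM (SD, n = 4; -1.08, SE 0.15, adjusted p = 0.000369), and Npas2 (-2.90, SE 0.68) and Clock (-0.43, SE 0.11) fell too. Per1 was called lower (-1.93, SE 0.60, adjusted p = 0.0344), the largest called fall of that gene, yet 1 vehicle rat, at 5.96 CPM, lay below all treated rats (10.5 to 15.2), with the other 3 at 53.1 to 65.6. The call was lost on leaving out any of 7 single rats. Dbp was at 12.3 ± 4.73 against 10.8 ± 0.624 CPM (adjusted p = 0.553). The hepatocyte markers, 4 of 6 called lower, summed to 64500 to 81100 against 194000 to 208000 CPM, and the neutrophil markers, 1 of 3 tested called higher, to 2.25 to 7.35 against 0.179 to 1.96. Their part was not tested.

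Methimazole, which blocks thyroid hormone synthesis, given at 600 mg/kg, changed 8 members, where 23.8% of genes were called. Npas2 was nearly absent in treated rats, at 3.01, 1.79, 0.461 and 1.09 CPM against 27, 27.1, 23.3 and 36.4, the largest called fall of Npas2 in the series (-4.17, SE 0.42, adjusted p = 0.000594). Per3 stood at 20.9, 17.1, 20 and 23.4 against 3.38, 4.56, 3.57 and 2.04 CPM (2.59, SE 0.21, adjusted p = 6.45e-05). Arntl stood at 24.3, 30.5, 24.2 and 24.3 against 54, 51.8, 44.4 and 55.4 CPM (-0.99, SE 0.11, adjusted p = 0.000311). In each of these the groups were far apart. Nr1d1 (2.37, SE 0.48), Nr1d2 (1.73, SE 0.16) and Dbp (1.07, SE 0.21, adjusted p = 0.00644) rose, and Cry1 fell (-1.10, SE 0.25). Clock was called lower (-0.32, adjusted p = 0.02), a call lost on leaving out vehicle replicate 2 or 4. Per1 (-0.15, adjusted p = 0.657) and Per2 (0.81, adjusted p = 0.302) did not pass. Of the hepatocyte markers 2 of 6 were called lower (106000 to 158000 against 162000 to 224000 CPM summed), all 6 macrophage markers were lower (161 to 317 against 398 to 476), the stellate markers, 1 of 5 lower, summed to 273 to 440 against 447 to 550, and the erythroid markers, 2 of 3 tested lower, to 3.53 to 5.51 against 177 to 426. Their part was not tested.

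Fluoxetine, a serotonin reuptake inhibitor given at 400 mg/kg to the 3 treated rats sequenced, changed 8 members, where 47.1% of genes were called. Cry1 stood at 19, 14.2 and 14.4 CPM against 54.7, 44.7, 41.9 and 50.8 in 4 vehicle rats (-1.60, SE 0.15, adjusted p = 0.000248). Nr1d1 stood at 11.4, 10.5 and 13.8 against 4.57, 3.87, 2.85 and 2.58 (1.78, SE 0.22, adjusted p = 0.000635), and Nr1d2 rose by a similar amount (1.82, SE 0.22). Npas2 stood at 0.593, 5.61 and 0.682 against 25.5, 36.4, 32.6 and 19.1 (-3.64, SE 0.70, adjusted p = 0.00447). The second treated rat had the highest Npas2 and Arntl (34.4 against 28.8 and 15.9 CPM) and the lowest Per3 (5.67 against 16.6 and 24.3). Arntl (-0.87, SE 0.23), Clock (-0.48, SE 0.10) and Per2 (-1.36, SE 0.39) fell. Per3 (1.56, SE 0.51, adjusted p = 0.0359) was lost on leaving out any of 5 rats, and Per2 without vehicle replicate 4. RNA integrity (RIN) did not overlap between the arms, at 8.6 to 8.9 against 8.2 to 8.5, and with RIN as a covariate 3 members were called. All 4 neutrophil markers tested rose (6.67 to 35.3 against 0.662 to 1.25 CPM summed), and hepatocyte markers, 3 of 6 lower and 2 higher, summed to 62100 to 99700 against 161000 to 186000. Macrophage markers, 3 of 6 higher and 2 lower, summed to 374 to 580 against 307 to 343, stellate markers, 2 of 5 lower and 1 higher, to 273 to 331 against 356 to 592, and erythroid markers, 3 of 3 tested lower, to 55.1 to 123 against 164 to 367. Their part was not tested.

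TCDD, the dioxin that activates the aryl hydrocarbon receptor, was given at 0.00015 mg/kg and changed 7 members, where 20.9% of genes were called. This comparison held the largest called fall of Arntl and of Clock and the largest called rise of Per2, Per3 and Dbp in the series. The rise of Per2 started from an unusually low level. In the scaling of the vehicle groups, its mean in these vehicle rats was 7.9 CPM. The other 38 Han Wistar groups ran from 9.84 to 55.2 CPM, with a median of 37.4. Arntl stood at 0.852, 2.28, 1.65 and 3.16 CPM in treated and at 32.6, 31.1, 23.7 and 28 in vehicle rats (-3.83, SE 0.29, adjusted p = 9.21e-05). Dbp stood at 77.7, 60.9, 75.9 and 61.2 against 1.83, 1.02, 6.73 and 2.12 (4.68, SE 0.51, adjusted p = 0.00122). Per3 stood at 52.6, 36.7, 41.7 and 40.3 against 2.05, 2.9, 6.66 and 3.94 (3.52, SE 0.32, adjusted p = 0.000333). In these genes all 4 treated rats stood apart from the vehicle rats. Clock fell from 94.1 ± 4.85 to 50.6 ± 4.22 CPM (SD, n = 4; -0.89, SE 0.08, adjusted p = 7.74e-05), Npas2 by 3.06 on the log2 scale (SE 0.22), and Per2 (1.72, SE 0.31) and Nr1d2 (1.05, SE 0.22) rose. Nr1d1 was already high in the vehicle rats, as described for this group above, at 14.7 to 45.1 CPM against 44.2 to 61.6 in treated rats, and did not pass (0.96, adjusted p = 0.0952). Cry1 was low in both (-0.43, adjusted p = 0.41), and Per1 overlapped, at 10.3 ± 5.51 against 8.82 ± 3.05 CPM (SD, n = 4; 0.22, adjusted p = 0.782).

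All 7 calls of the TCDD comparison were kept on leaving out any single rat. Hepatocyte markers overlapped between the arms, at 91200 to 112000 in treated and 85800 to 105000 CPM summed in vehicle rats, with 1 of 6 called higher. Macrophage markers overlapped as well (270 to 311 against 223 to 342 CPM), and none was called. Of the other lists only the summed cholangiocyte markers (3.55 to 4.7 against 5.47 to 8.44, 2 of 3 tested lower) and the pancreas list (37 to 49 against 28.1 to 35.1, none called) stood apart. RIN did not overlap, at 9.1 to 9.3 in treated and 7 to 8.6 in vehicle rats, and with RIN as a covariate 3 members were called. RIN and treatment can therefore not be told apart by the model here.

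Azithromycin, a macrolide antibiotic given at 600 mg/kg, was the Sprague Dawley comparison with most members called, 6 where 47.1% of genes were called. Per2 stood at 11.6, 12, 11.9 and 14 CPM in treated against 46.4, 27.1, 92.9 and 48.3 in vehicle rats (-2.11, SE 0.34, adjusted p = 0.00137), the largest called fall of Per2. Per3 stood at 3.66, 3.75, 4.24 and 8.01 against 15.7, 11.8, 81.3 and 51.5 (-3.02, SE 0.68, adjusted p = 0.00853). Dbp stood at 4.82, 3.62, 6.79 and 12.2 against 29.9, 15.7, 128 and 106 (-3.34, SE 0.76, adjusted p = 0.00852). In none of these genes did the groups overlap, and in each the vehicle rats were spread more widely in CPM than the treated rats. Nr1d2 (-1.42, SE 0.20, adjusted p = 0.000407) and Per1 (-1.14, SE 0.32) fell as well, and Nr1d1 was called lower (-2.32, SE 0.67, adjusted p = 0.0244) with overlapping groups, a call lost on leaving out any of 4 single rats. Arntl stood at 38.5, 34.2, 34.9 and 32.2 in treated and at 23.2, 28.8, 3.43 and 5.53 in vehicle rats. Every treated rat thus held more Arntl than every vehicle rat, but with the spread of the vehicle rats this did not pass (1.19, SE 0.60, adjusted p = 0.142). Clock was level, at 54.1 ± 2.01 against 54.2 ± 7.08 CPM (adjusted p = 0.993). The hepatocyte markers, 4 of 6 called lower, summed to 65900 to 76600 against 170000 to 197000 CPM. The endothelial markers, 3 of the 4 tested called lower, summed to 27.2 to 76.1 against 170 to 186 CPM. The part of these markers was not tested.

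Flutamide, an androgen receptor blocker given at 600 mg/kg, changed 5 members, where 48% of genes were called. Npas2 stood at 0.312, 0.117, 0.822 and 4.89 CPM against 12.5, 16.2, 19.4 and 34 (-3.74, SE 0.84, adjusted p = 0.00809). Per3 stood at 38, 62.9, 17.2 and 12.2 against 6.47, 6.94, 6.52 and 3.06 (2.49, SE 0.57, adjusted p = 0.00854). The treated rats were uneven: the first and second held 9.68 and 3.58 CPM of Arntl with 26.9 and 41.5 of Dbp, and the other two 33 and 36.9 of Arntl with 7.52 and 4.05 of Dbp. The vehicle rats held 47.2 to 53.8 of Arntl and 7.05 to 9.34 of Dbp. Neither gene passed, at -1.30 for Arntl (SE 0.61, adjusted p = 0.117) and 1.28 for Dbp (SE 0.68, adjusted p = 0.158). Nr1d2 rose (1.47, SE 0.24) and Cry1 fell (-0.66, SE 0.14), while Nr1d1 (1.64, adjusted p = 0.0214) overlapped and was lost without vehicle replicate 1, 2 or 3. RIN was 8.8 to 9.2 in treated and 8.2 to 8.3 in vehicle rats, and with RIN as a covariate edgeR called 0 members (3 at an unadjusted p under 0.05). DESeq2 without that covariate called 5. Hepatocyte markers, 5 of 6 lower and 1 higher, summed to 79400 to 106000 against 168000 to 184000 CPM. Called lower as well were 5 of 6 macrophage (160 to 228 against 325 to 392), 4 of 5 stellate (168 to 297 against 473 to 509), 4 of 4 endothelial (178 to 227 against 253 to 300) and 2 of 3 erythroid markers tested (58.9 to 164 against 179 to 256). Their part was not tested.

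Hydroxyzine, an antihistamine given at 600 mg/kg to the 3 treated rats sequenced, changed 5 members, where 27.5% of genes were called. Nr1d1 stood at 8.01, 9.27 and 26.3 CPM against 2.45, 2.23, 2.6 and 3.78 in 4 vehicle rats (2.39, SE 0.43, adjusted p = 0.00778). Arntl stood at 29.9, 35.6 and 24.3 against 46, 47.3, 40.5 and 45.4 (-0.58, SE 0.14, adjusted p = 0.019). In both the groups stood apart. Nr1d2 rose (1.12, SE 0.23). Clock (-0.45, adjusted p = 0.0223) and Per1 (-0.51, adjusted p = 0.043) were called lower, and these calls were lost on leaving out any of 3 and of 5 rats. Leaving out single rats gave 3 to 7 members, 3 of them without vehicle replicate 1. RIN was 8.5 to 8.7 in treated and 8.25 to 8.4 in vehicle rats, and with RIN as a covariate edgeR called 0 members (2 at an unadjusted p under 0.05). DESeq2 without that covariate called 10. Hepatocyte markers, 3 of 6 called lower, summed to 53500 to 90700 against 170000 to 199000 CPM. All 4 erythroid markers (41.2 to 56 against 255 to 404), 3 of 5 stellate (280 to 384 against 518 to 665) and 1 of 4 endothelial markers tested (88.6 to 119 against 128 to 184) were called lower too. Their part was not tested.

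**Figure D4:**
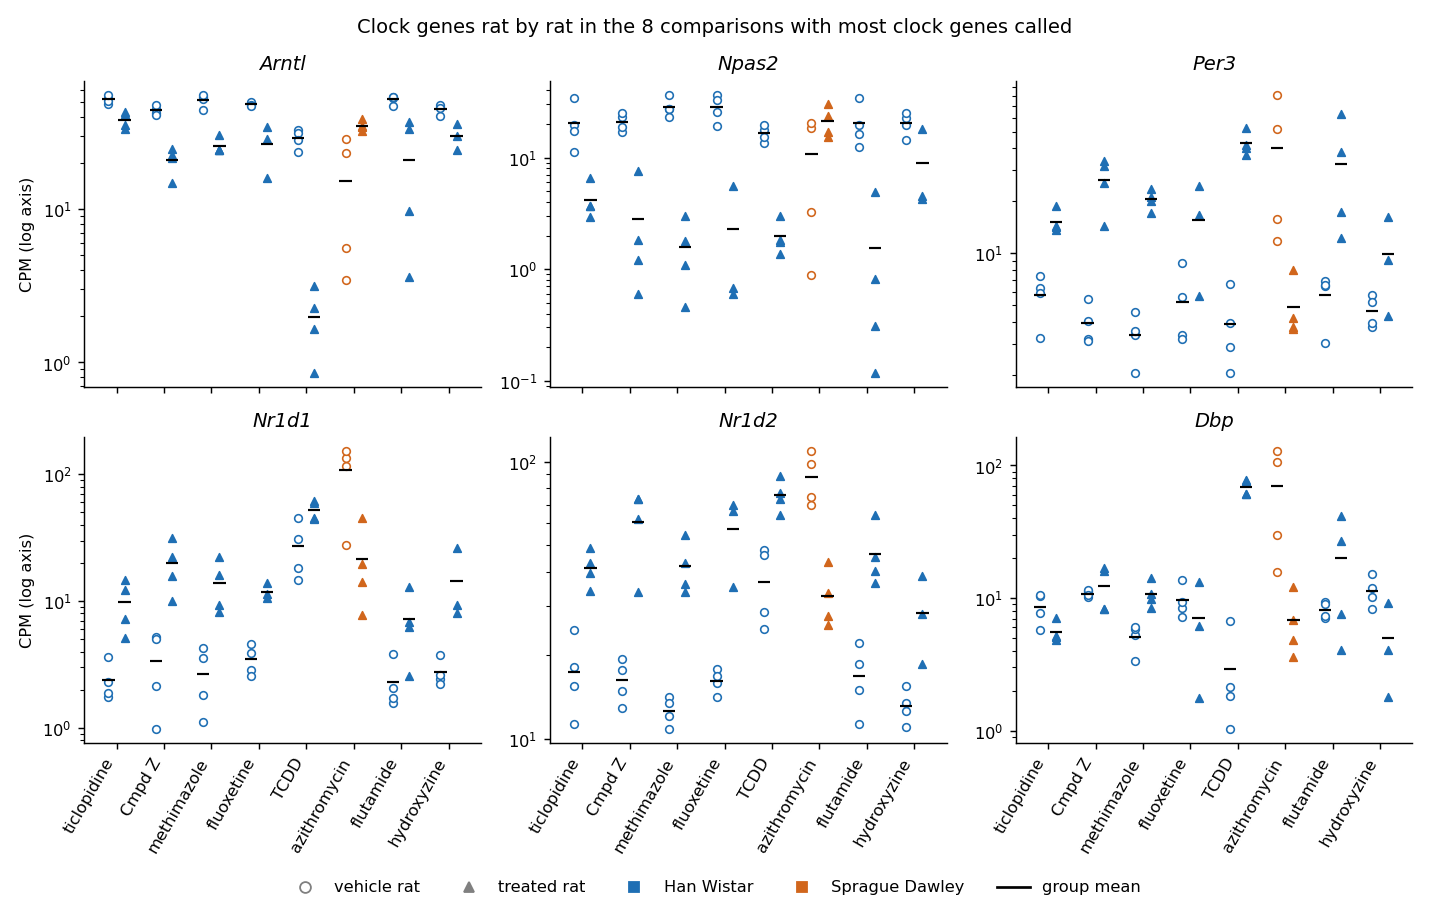
CPM (log axis) of 6 clock genes in each rat of the 8 comparisons with most members called; open circles are vehicle and triangles treated rats, blue is Han Wistar and orange Sprague Dawley, and bars are group means. Arntl falls farthest under TCDD, from 28.8 to 1.99 CPM on average, and of the vehicle groups that of azithromycin is spread widest in Arntl, from 3.43 to 28.8 CPM.

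The largest called changes outside these comparisons were in Sprague Dawley rats, apart from 2 under mibefradil. In Sprague Dawley rats they were rises of Arntl, Npas2, Clock and Cry1 and falls of Per3, Nr1d1, Nr1d2 and Dbp. Propranolol (400 mg/kg), a beta-adrenergic blocker, gave the largest called rise of Arntl, with 43.4, 39.7 and 22.7 CPM in treated against 0.896, 1.93, 2.12 and 3.78 in vehicle rats (4.02, SE 0.43, adjusted p = 0.00984). Here all vehicle rats were of the kind with low Arntl. Valsartan (750 mg/kg), an angiotensin receptor blocker, gave the largest called rise of Npas2, with 29, 40.3, 25.7 and 31.5 CPM against 2.3, 6.84 and 2.19 (3.05, SE 0.42, adjusted p = 0.0385). In the same rats Per3 stood at 5.1, 2.13, 2.27 and 2.8 against 60.7, 26.9 and 39.5 (-3.79, SE 0.37, adjusted p = 0.0148) and Nr1d2 at 15.3, 20.6, 34.5 and 21.3 against 101, 84 and 84.8 (-1.98, SE 0.25, adjusted p = 0.0212). Both were the largest called falls of their genes, with no overlap between the groups.

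Telithromycin (600 mg/kg), a relative of azithromycin among the macrolide-like antibiotics, gave the largest called rise of Clock, with 68.1, 79.3, 50.4 and 81.1 CPM against 37.6, 36.3, 26.9 and 22.9 (1.17, SE 0.20, adjusted p = 0.0203). Telcagepant (400 mg/kg), a CGRP receptor antagonist, gave that of Cry1, with 19.4, 9.6, 12.5 and 17.7 against 7.02, 5.49, 4.04 and 2.69 (1.63, SE 0.34, adjusted p = 0.0341). Naproxen (400 mg/kg), a cyclooxygenase inhibitor, gave the largest called fall of Nr1d1, with 6 and 22.1 CPM in the 2 treated rats sequenced against 49.4, 89.2, 86.8 and 133 (-2.67, SE 0.65, adjusted p = 0.0216). Sudoxicam (100 mg/kg), of the same broad class of drugs, gave that of Dbp, with 2.45, 2.36 and 4.91 against 81.5, 12.1, 9.05 and 116 (-4.09, SE 1.05, adjusted p = 0.0197). The vehicle rats of sudoxicam were of both kinds, with 2 at about the Dbp level of Han Wistar rats and 2 far above it.

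In Han Wistar rats, mibefradil (600 mg/kg), a calcium channel blocker, gave the largest called fall of Cry1 and the largest called rise of Nr1d1. Cry1 stood at 6.76, 7.25 and 7.5 CPM in treated against 43, 39.4, 34 and 43.8 in vehicle rats (-2.48, SE 0.13, adjusted p = 0.000148). Nr1d1 stood at 46.8, 31.1 and 68.9 against 3.47, 3.25, 6.6 and 3.1 (3.57, SE 0.36, adjusted p = 0.00466). No treated rat overlapped a vehicle rat in either gene.

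Of 20 further clock genes on a list (kinases, ubiquitin ligases, D-box factors and others), 82 of 1772 tests were called higher and 103 lower, 10.4% in all, close to the 9.53% of all gene tests called in either direction. Among those called most often were Arntl2, the paralogue of Arntl, Csnk1e, a kinase of the PER proteins, Nfil3, a repressor at D-boxes, and Cry2. Arntl2 was called lower in 26 comparisons and higher in 0, from low counts. In the ticlopidine comparison it stood at 0, 0, 0.0613 and 0 CPM in treated (0 to 1 reads a rat) against 2.72, 1.83, 2.51 and 2.11 in vehicle rats (22 to 40 reads), and in the Cmpd Z comparison at 0 to 0.0682 against 0.501 to 1.61 CPM. TCDD left it at 1.08 to 2.98 against 1.5 to 3.06 CPM. Cry2 rose under TCDD (1.04, SE 0.10, adjusted p = 9.91e-05), Cmpd Z (0.99, SE 0.22) and flutamide (0.82, SE 0.12), and fell under azithromycin (-1.05, SE 0.23), fluoxetine (-1, SE 0.21) and hydroxyzine (-0.92, SE 0.29). In Han Wistar rats it was thus called in both directions. Of 8 glucocorticoid-responsive genes, chosen as neighbours of Per1 in regulation, 37 of 776 tests were called higher and 76 lower, 14.6% in all, beside the same 9.53%.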

How the data were processed

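Liver RNA of 377 treated and 366 vehicle libraries was extracted from frozen tissue by MagMAX and made into TruSeq Stranded mRNA libraries, per the labels' protocols. The values in the deposited tables are expected counts of genes, not normalised, as the values themselves show (88.05% of the non-zero values lie within 1e-06 of a whole number). The build Rnor_6.0 is named in the submitters' processing notes, and the aligner and counter are not given in the sources used here. The table with Ensembl identifiers (32893 rows) was used, and the RefSeq table (34335 rows) was an alternative. FPKM tables were not used. A row for the whole Ugt1a locus, which adds up its 10 transcript rows with a gap of at most 0.044 reads, was dropped.

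Expected counts were rounded, libraries of 1 rat in a batch were summed, and n counts rats. Each comparison was fitted in edgeR 4.0.16 (R 4.3.3), after filterByExpr and TMM scaling, by its quasi-likelihood test (robust, 2-sided). P-values were adjusted after Benjamini and Hochberg across every gene of the fit and called under 0.05. The bardoxolone and pyrazole fits had sex as a term. Libraries of rats sequenced again for lapatinib and almorexant stayed out of the counts of calls. For the strain difference, counts of male vehicle rats dosed for 4 days were summed per study and vehicle. Pairs of members were tested with 100000 permutations of group means of log2 CPM (prior count 0.5). Vehicle rats found under 2 study codes were joined, by an index of scatter between libraries with a limit of 6. For each gene whose counts in both libraries sum to 20 or more, the squared distance from the split that library totals predict was divided by its binomial variance, and the index is the mean of these ratios. The plan had counted groups by study code, which was kept as an alternative chosen after seeing the data. Counts of reads limit the precision of low genes such as Nr1d1 in Han Wistar rats. The fits were also tested on simulated data with 100 genes changed at each size. The ticlopidine comparison recovered 94% of 2-fold and 95% of 4-fold changes (12188 genes), and the azithromycin comparison 90% and 97% (12811 genes). The changed genes were drawn only from those with an expected count over 100 a rat. Recovery at lower counts, or for the members themselves, was not tested.

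All 10 members are named, with the 8 comparisons with most members called in full. The largest called rise and fall of each member (mean of at least 1 CPM in the higher group) are given too, with counts over the 20 further clock genes and the 8 glucocorticoid-responsive genes. Values of 1 gene that met this rule are not reported here. The 5 genes most like Arntl, Dbp and Per1 were sought among genes with a symbol and a mean of at least 5 CPM. The members, the lists and the tests were chosen with earlier results of these data known. Marker lists covered hepatocytes, macrophages, endothelium, stellate cells, lymphocytes, neutrophils, erythroid cells, cholangiocytes and pancreas. Of the 8 comparisons, all but hydroxyzine had Prss1 and Pnlip of the pancreas list at 0 in every rat. The ticlopidine comparison had Cpa1 at 0 too. Alternatives were DESeq2 1.42.0, RLE size factors, all genes without a count filter, the RefSeq table, RIN as a covariate, libraries with RIN under 7 removed, an absolute log2 fold change of at least 1, and single rats left out. For vehicle groups they were the batch number as a covariate, batch 3 alone, methylcellulose alone, a prior count of 2, library totals alone, males alone and each strain alone. Leaving out the 2 libraries in doubt and the PCN study was added after seeing the data.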

Additional observations from a re-analysis of the deposited data

Results flagged for a closer look

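In the 8 leading comparisons, 140 groups of 4 rats (1 member in 1 arm each) were checked for a rat far from the others, and 9 were found. Chance flags about 1 in 20 such groups. Under azithromycin, treated replicate 4 stood apart with 8.01 CPM of Per3 (others 3.66 to 4.24) and 6.52 of Cry1 (others 9.29 to 9.78). Among the flutamide vehicle rats, replicate 2 had 47.2 CPM of Arntl (others 53.2 to 53.8) and replicate 4 had 3.06 of Per3 (others 6.47 to 6.94). Treated replicate 4 of flutamide had 4.89 CPM of Npas2, where the others had 0.117 to 0.822. Under methimazole, treated replicate 2 had 30.5 CPM of Arntl (others 24.2 to 24.3). Under ticlopidine, treated replicate 3 had 34.8 CPM of Per1 (others 17.4 to 19.6), and treated replicate 1 had 18.7 of Per3 (others 13.5 to 14.3) and 7.11 of Dbp (others 4.79 to 5.13).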

How the results depend on the processing

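The 140 calls of members over all comparisons became 220 with DESeq2 and 67 with RIN as a covariate. The share of all genes called in these settings was not set beside them. Whether the members shifted more than other genes can therefore not be read from these counts. The 64 higher calls became 28 with RIN, and the 76 lower calls became 127 with DESeq2 and 39 with RIN. The 57 calls in the 8 leading comparisons became 36 with RIN, which left a covariate nearly tied to treatment in 4 of them. Leaving out 1 rat gave 8 to 10 members called for ticlopidine, 7 to 9 for Cmpd Z, 7 to 8 for methimazole, fluoxetine and TCDD, 5 to 6 for azithromycin, 4 to 6 for flutamide and 3 to 7 for hydroxyzine. In hydroxyzine, DESeq2 called 10 members and a minimum absolute log2 fold change of 1 called 2, against 5. The same minimum called 6 of the 10 members in ticlopidine. With RIN, 3 members were called in fluoxetine and in TCDD, and the counts for flutamide and hydroxyzine are given with those comparisons. The 28 pairs that passed in Han Wistar groups became 18 in batch 3 alone, which holds 21 of the 39 groups. The median share of variance between vehicle groups, 61.6% over both strains, became 22.6% in Sprague Dawley alone. The cause of these shifts was not tested. For the counts named here the other alternatives, and for the 8 strain calls all alternatives run, stayed within 1.5 times. RLE size factors and DESeq2 moved the median log2 fold change of all genes by at most 0.03. No strain log2 fold change of a member reversed its direction in the alternatives run. Among the pairs that passed, Clock and Cry1 in Han Wistar groups went from r = -0.53 to 0.1 in batch 3 alone. No paired analysis was possible because animal numbers are not shared between treated and vehicle groups.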

Other observations

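The lapatinib rats and their vehicle rats were sequenced again under another batch number, which gives the members a technical repeat in Sprague Dawley rats. edgeR's quasi-likelihood test called 0 members in either run (2 and 1 at an unadjusted p under 0.05), and DESeq2 called 0 and 1. In the first run the edgeR test called 0 of all 12784 genes, so the lack of calls was not particular to clock genes. Over all genes DESeq2 called 89 in the first run and 614 in the second. The log2 fold change of Dbp was -1.88 (SE 0.98) in the first run and -1.63 (SE 0.96) in the second. That of Per3 was -1.60 (SE 0.87) and -1.58 (SE 0.87), that of Per2 -1.53 (SE 0.55) and -1.49 (SE 0.49), and that of Arntl 0.89 (SE 0.63) and 1.09 (SE 0.60). All 4 had the same sign in both runs and moved by less than their standard errors. Clock moved by more than its standard error, from 0.29 (SE 0.11) to 0.14 (SE 0.1), with the same sign. Both runs hold the same rats, and the standard errors include the spread between rats. They are therefore not a measure of how well sequencing repeats.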
